A study of Homo sapiens with 4 samples.

Results

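The mRNAs of the translation initiation factors were examined for IGF2BP3 RIP peaks. They were taken as the protein-coding genes of GENCODE release 44 whose symbol starts with EIF, without the eIF4G scaffold genes EIF4G1, EIF4G2 and EIF4G3. This gave 53 of 20046 protein-coding genes. A peak belonged to a gene when its summit lay in an annotated exon, which held for 108 of 44622 peaks in replicate 1 and 101 of 42723 in replicate 2.

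The 4 samples were all of OE-19 cells, a human line established from an adenocarcinoma at the esophagogastric junction (AEG) and grown without any knockdown or drug named in the labels. For RIP-seq, the sequencing of RNA recovered by immunoprecipitation, anti-IGF2BP3 antibody pulled down the protein with its bound RNA, here from cells that the labels describe as UV-fixed. There were 2 RIP replicates, each with its own peak list, and 2 input replicates, whose values were not analysed here. With 1 group and 2 lists no test between groups was possible, and all comparisons below are descriptions. The labels do not say whether the replicates came from separate cultures, so their spread may be technical.

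In eukaryotic initiation, eIF2 brings the initiator tRNA to the small ribosomal subunit, eIF1, eIF1A, eIF3 and eIF5 act in scanning and start codon choice, and the eIF4 proteins recruit the capped mRNA. The step is controlled by kinases that phosphorylate the α subunit of eIF2 under stress and by 4E-binding proteins that hold eIF4E away from eIF4G. IGF2BP3 is an RNA-binding protein known as a reader of m6A and as a stabiliser of mRNAs.

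As examples of coding sites found in both replicates, sequences are given for the shared sites with the highest mean fold enrichment that fell whole within 1 coding exon. The fold enrichment of a peak is the caller's ratio of RIP signal at the summit to the local background. Sequences are those of GENCODE 44 transcripts in GRCh38, 5′ to 3′ in mRNA sense, and capitals mark bases covered by the peaks of both replicates. The sites lay in EIF1B exon 3 (chr3:40311472-40311568, plus strand), EIF2AK4 exon 25 (chr15:40008037-40008186, plus strand), EIF2AK4 exon 23 (chr15:40003246-40003296, plus strand), EIF4E exon 6 (chr4:98884941-98885058, minus strand), EIF2AK2 exon 13 (chr2:37120017-37120133, minus strand) and EIF4E3 exon 6 (chr3:71690060-71690161, minus strand).
EIF1B exon 3: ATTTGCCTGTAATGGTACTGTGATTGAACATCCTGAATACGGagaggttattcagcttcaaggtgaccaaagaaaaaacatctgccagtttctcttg
EIF2AK4 exon 25: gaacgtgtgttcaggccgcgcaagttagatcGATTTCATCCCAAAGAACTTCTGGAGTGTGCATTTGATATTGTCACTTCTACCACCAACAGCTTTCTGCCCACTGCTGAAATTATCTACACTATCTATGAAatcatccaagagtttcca
EIF2AK4 exon 23: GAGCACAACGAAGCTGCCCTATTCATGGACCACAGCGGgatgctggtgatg
EIF4E exon 6: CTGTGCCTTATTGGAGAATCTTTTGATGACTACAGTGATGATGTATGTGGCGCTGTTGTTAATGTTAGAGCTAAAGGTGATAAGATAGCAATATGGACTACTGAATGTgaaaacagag
EIF2AK2 exon 13: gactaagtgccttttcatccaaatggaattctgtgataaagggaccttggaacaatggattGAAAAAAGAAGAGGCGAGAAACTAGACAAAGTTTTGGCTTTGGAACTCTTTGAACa
EIF4E3 exon 6: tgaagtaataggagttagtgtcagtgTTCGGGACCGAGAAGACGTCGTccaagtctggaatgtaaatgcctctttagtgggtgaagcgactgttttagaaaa
The fold enrichments at these 6 sites, replicate 1 first, were 4.0 and 3.57 in EIF1B, 4.06 and 3.43 in EIF2AK4 exon 25, 3.62 and 3.71 in EIF2AK4 exon 23, 4.25 and 2.72 in EIF4E, 3.37 and 3.09 in EIF2AK2, and 2.76 and 3.38 in EIF4E3. The summits of the replicates lay 2 to 84 bp apart. None of the 6 sites had a deposited q of 0.05 or less in either replicate, the lowest being 0.0663 in EIF2AK4 exon 25. The study names UGGAC, and its DNA spelling TGGAC occurred once in EIF2AK4 exon 23 and once in EIF4E exon 6.

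Exonic peaks were found in both replicates for 16 of the 53 genes, in 1 replicate for 9 and in neither for 28. The share with a peak in both was 30.2%, the background over all protein-coding genes being 28.0%. The genes were also split into factors proper and 9 other genes, namely regulators of initiation and EIF1AD. This was done with results of these data known and with no test. The 4 eIF2α kinases, the 4 eIF4E repressors and EIF1AD, a gene with an eIF1A-like domain, carried 68 of 108 peaks in replicate 1 and 62 of 101 in replicate 2 on 22.8% of the summed mRNA length. Within these 9 genes the peaks were uneven. EIF2AK4 and EIF2AK2 had 18 and 15 of those in replicate 1, EIF1AD had none and 1, and EIF4EBP1 and EIF4EBP3 had none. The other 44 genes, the factors proper, carried 40 and 39 peaks on 77.2% of it. This came to 1.70 and 1.55 peaks per kb of mRNA for the first 9 genes and 0.295 and 0.288 for the factors proper. Summits on all protein-coding mRNAs stood at 0.572 and 0.552 per kb.

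**Figure D1:**
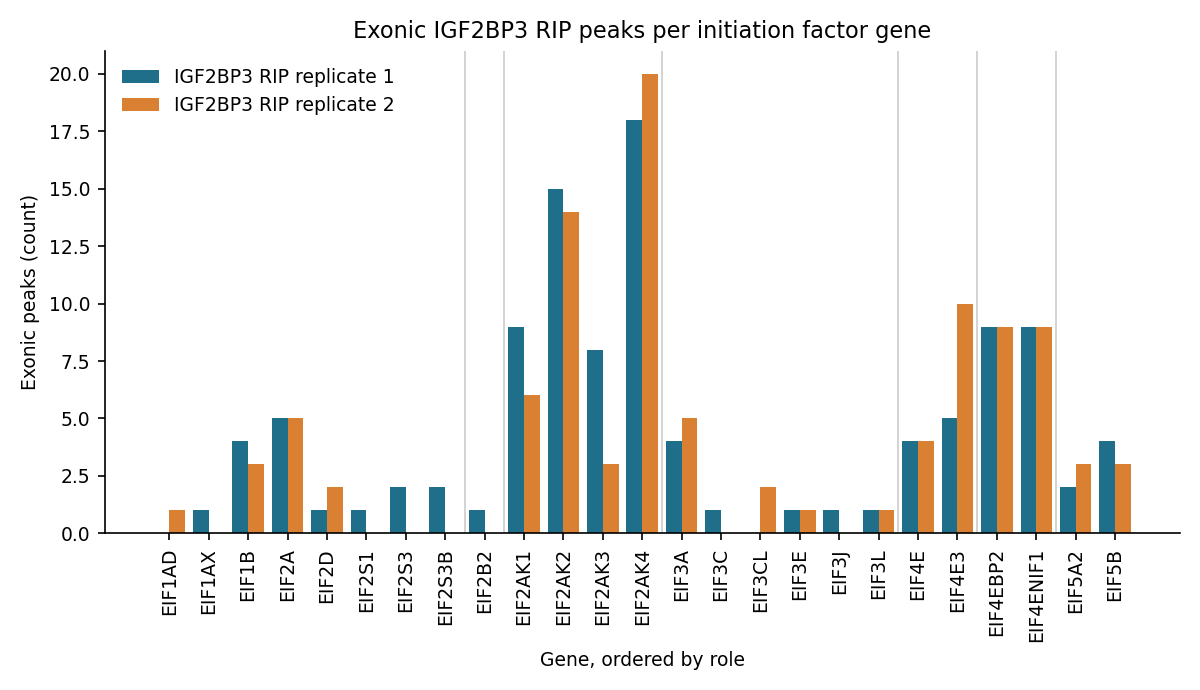
Number of exonic peaks (y axis) in each of the 25 initiation factor genes with any peak (x axis, ordered by role, grey lines between roles), with 1 bar per IGF2BP3 RIP replicate. EIF2AK4, with 18 and 20 peaks, and EIF2AK2, with 15 and 14, stood highest in both replicates.

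All 4 eIF2α kinases, with mRNAs of 4411 to 9975 nt, had peaks in both replicates. Of all protein-coding genes, 39.0% with mRNAs of 3000 to 5000 nt and 54.4% with longer ones did. The kinases held 50 of 108 peaks in replicate 1 and 43 of 101 in replicate 2, or 46.3% and 42.6%, on 13.9% of the mRNA length. They also held 5 of the 6 peaks with a q of 0.05 or less in replicate 1 and 2 of the 3 in replicate 2. These were 5 of 50 and 2 of 43 kinase peaks, where 10.2% and 7.81% of peaks on all protein-coding exons had such a q. By that share the kinase peaks did not stand above the background. Of the kinase peaks, 28 of 50 (56%) and 28 of 43 (65.1%) overlapped a peak of the other replicate. Over all protein-coding exons these shares were 61.0% and 64.8%.

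EIF2AK4 encodes GCN2, the kinase that senses uncharged tRNA, and lies on chromosome 15 (39934115 to 40035591). It had 18 peaks in replicate 1, with fold enrichments from 2.27 to 4.70 and a median of 3.19. In replicate 2 it had 20, from 2.25 to 3.78 with a median of 3.02. The peaks ran along the coding sequence (CDS) rather than sitting at 1 place: summits fell in 17 of its 39 exons in replicate 1 and in 20 in replicate 2, 10 of these the same. Of the summits placed on its canonical mRNA, none lay in the 3′ UTR or within 200 nt of the stop codon. Its mean of 3.43 peaks per kb was above that of 94.9% of the genes with a peak in both replicates. In replicate 1 the peaks in exons 10 and 17 had q values of 0.0105 and 0.0120. The lowest q in replicate 2 was 0.0864, so no EIF2AK4 peak passed a q of 0.05 there.

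EIF2AK2 encodes PKR, the kinase that binds double-stranded RNA, and lies on chromosome 2 (37099210 to 37157522). Its peaks numbered 15 in replicate 1, with fold enrichments from 2.52 to 5.21 and a median of 3.44, and 14 in replicate 2, from 2.52 to 3.77 with a median of 3.06. Here the peaks were spread over CDS and 3′ UTR, with 7 summits of each replicate in the 3′ UTR. That UTR is 8063 nt long, and the peaks covered 54.2% of it in replicate 1 and 38.3% in replicate 2, with 31.4% covered in both. The highest value, 5.21 in exon 4 with a q of 0.0105, was seen in replicate 1 and overlapped no peak of replicate 2.

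EIF2AK1 encodes HRI, the kinase inhibited by heme, and lies on chromosome 7 (6022247 to 6059175). It had 9 peaks in replicate 1 (fold 2.05 to 4.82, median 2.41) and 6 in replicate 2 (fold 2.21 to 4.87, median 2.70). In both replicates the highest peak was the same one, with its summit near the end of the CDS in exon 15. It spanned 879 bp in replicate 1 (chr7:6023891-6024769) and 747 bp in replicate 2 (chr7:6024000-6024746), with q values of 0.0258 and 0.0392. This was the only site of the 53 genes with a q of 0.05 or less in overlapping peaks of both replicates. The summits lay 64 and 69 nt before the stop codon, but most of each peak lay past it in the 3′ UTR, which is not printed. As the only such site, it is shown by the coding end of exon 15, chosen after its values were seen (chr7:6024673-6024801, minus strand, 129 nt ending with the stop codon). Capitals mark the bases from one summit to the other.
EIF2AK1 exon 15: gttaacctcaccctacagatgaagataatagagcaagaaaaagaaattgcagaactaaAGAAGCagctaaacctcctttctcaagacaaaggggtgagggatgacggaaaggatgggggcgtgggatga
The printed stretch held neither TGGAC nor GGAC, and no CAT followed by A, C or T. The 3′ UTR part of the peaks was not part of this count. The 3′ UTR of EIF2AK1, 2426 nt long, held no summit beyond the stop codon window in either replicate.

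EIF2AK3 encodes PERK, the kinase of the endoplasmic reticulum stress response, and lies on chromosome 2 (88556741 to 88691518). The replicates differed most among the kinases here, with 8 peaks in replicate 1 (fold 2.63 to 4.70, median 3.12) and 3 in replicate 2 (fold 2.61 to 4.06, median 2.71). Each replicate had 1 peak with a q of 0.05 or less, but at different places. In replicate 1 it lay in exon 12 (fold 4.70, q 0.0105), where replicate 2 had no overlapping peak. In replicate 2 it lay in exon 15 (fold 4.06, q 0.0029), where replicate 1 had a peak of fold 2.63 with a q of 1. EIF2AK1 and EIF2AK3 were thus the 2 genes with such a peak in both replicates, which is 3.77% of the 53, where 4.93% of all protein-coding genes had one.

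**Figure D2:**
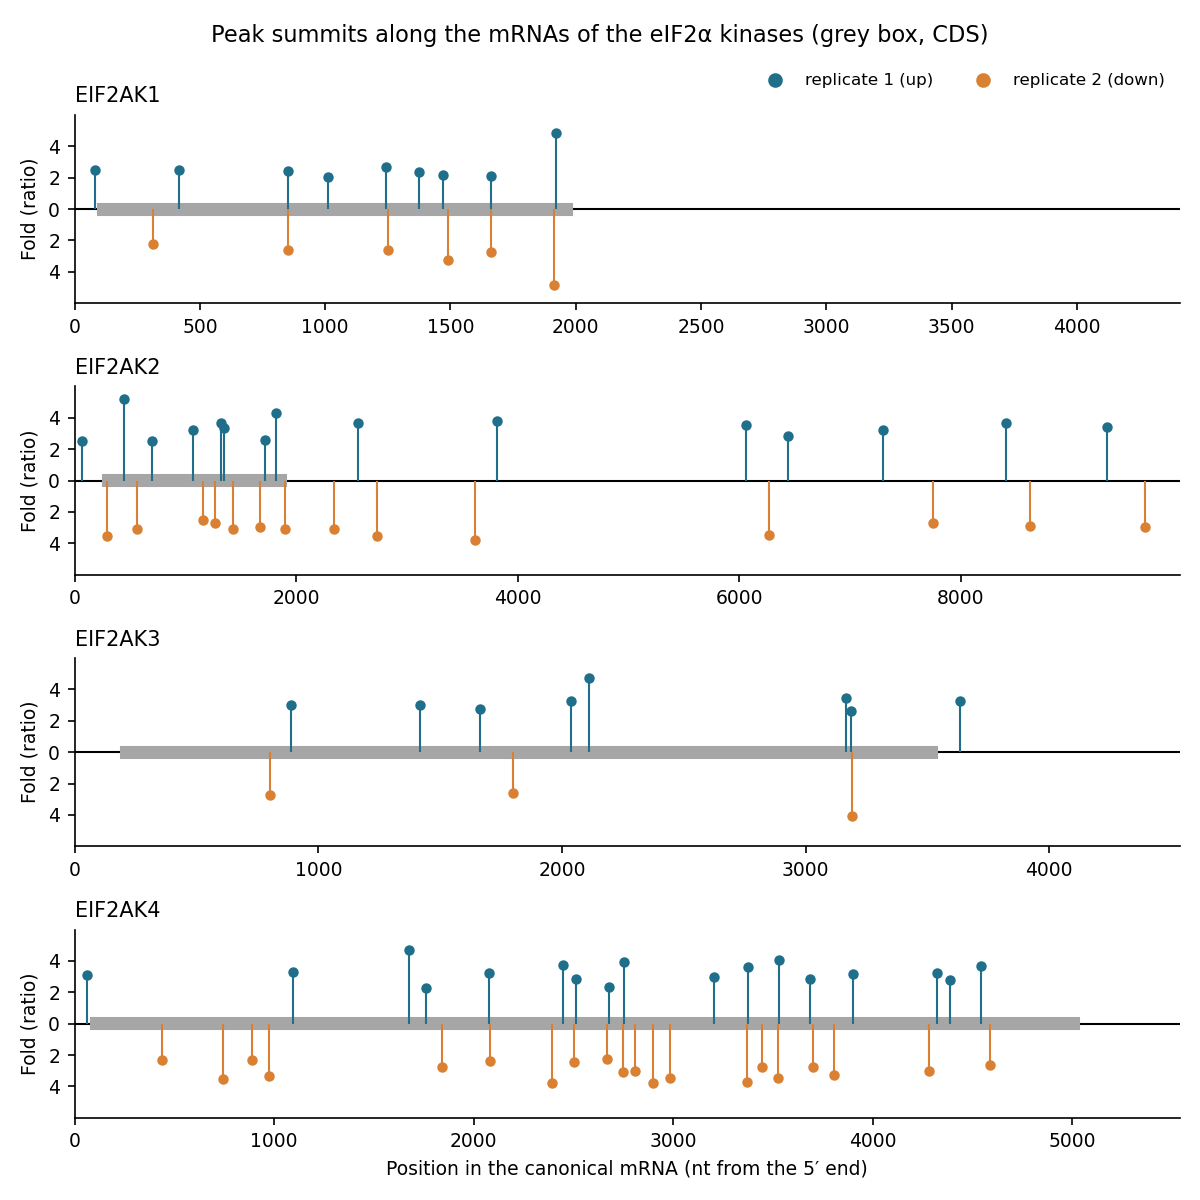
Summits along the canonical mRNAs of the 4 eIF2α kinases, with position in nt from the 5′ end on the x axis, fold enrichment on the y axis (replicate 1 upward, replicate 2 downward) and the CDS as a grey box. The summits of EIF2AK4 ran along its CDS, and those of EIF2AK2 reached through its 8063 nt 3′ UTR. EIF2AK1 had the summit of its highest peak, of fold 4.82 and 4.87, just before the stop codon.

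Among the eIF4E repressors, EIF4EBP2 and EIF4ENIF1 had 9 peaks each in each replicate, and EIF4EBP1 and EIF4EBP3 had none. EIF4EBP2 encodes a 4E-binding protein and lies on chromosome 10 (70404145 to 70428618). Its fold enrichments ran from 2.27 to 3.54 in replicate 1 (median 2.83) and from 2.37 to 4.04 in replicate 2 (median 2.83), and 7 and 8 of its peaks were shared. Most of its summits, 7 and 6, lay in a 3′ UTR of 6871 nt. Peaks covered 42.5% of that UTR in replicate 1 and 38.9% in replicate 2, with 26.1% covered in both. EIF4EBP1 and EIF4EBP3 are its paralogues, with CDS identities of 65.8% and 60.1%, and their mRNAs are much shorter, both under 1000 nt.

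EIF4ENIF1 encodes the eIF4E transporter, which binds eIF4E and carries it into the nucleus, and lies on chromosome 22 (31436977 to 31496108). Its 9 peaks had fold enrichments of 2.22 to 3.37 in replicate 1 and 1.94 to 3.30 in replicate 2. Their medians were 2.65 and 2.25, below those of the whole group, and 6 peaks of each replicate were shared. In contrast to EIF4EBP2, no summit lay in its 3′ UTR beyond the stop codon window. In exon 10 the summits of both replicates also lay in an exon of the overlapping gene ENSG00000240591, and the reads of these genes cannot be told apart there.

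The cap-binding and helicase group had peaks on 2 of its 9 genes, each in both replicates (22.2%, next to 28.0% of all protein-coding genes). EIF4E, the cap-binding protein itself, lies on chromosome 4 (98879276 to 98929133) and had 4 peaks in each replicate. Their fold enrichments were 3.12 to 4.25 in replicate 1 and 2.63 to 3.68 in replicate 2, and 3 of each were shared, among them the exon 6 site printed above. EIF4E3, a cap-binding paralogue, lies on chromosome 3 (71675414 to 71754773) and had 5 peaks in replicate 1 (fold 1.96 to 2.76) and 10 in replicate 2 (fold 2.19 to 4.05). Its peak in exon 5, of fold 4.05 and q 0.00424, was called in replicate 2 alone. In exons of the overlapping gene ENSG00000285708 lay the summits of 3 peaks of replicate 1 and 4 of replicate 2. These, the exon 5 peak and the printed exon 6 site among them, cannot be assigned to EIF4E3 with certainty. No peak was called on EIF4E2 or EIF4E1B, on the helicase genes EIF4A1, EIF4A2 and EIF4A3, or on EIF4B and EIF4H, whose proteins assist the helicase.

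In the scanning and ternary complex group, 3 of 12 genes (25%) had peaks in both replicates, next to 28.0% of all protein-coding genes. EIF1B, a paralogue of the scanning factor gene EIF1, lies on chromosome 3 (40309707 to 40312424) and had 4 peaks in replicate 1 and 3 in replicate 2. In replicate 1 the fold enrichments were 5.89, 2.45, 4.0 and 3.30 from exon 1 to exon 4, and in replicate 2 they were 2.75, 3.57 and 3.02 in exons 1, 3 and 4. The 5.89 in the 5′ UTR, with a q of 0.000258, was the highest value on any of the 53 genes, but the overlapping peak of replicate 2 reached only 2.75 with a q of 1 and its summit lay 105 bp away. The summit of replicate 2 in exon 4 also lay in an exon of ENSG00000291315. With an mRNA of 987 nt, EIF1B had a mean of 3.55 peaks per kb, above 95.6% of the genes with a peak in both replicates. The CDS of EIF1 is 82.2% identical to that of EIF1B and its mRNA is 2338 nt long, and no peak was called on it.

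EIF2A, whose protein can deliver initiator tRNA independently of eIF2, had 5 peaks in each replicate, with fold enrichments up to 2.66 and 3.25, and 2 of each were shared. EIF2D, an initiation factor of the same kind, had 1 and 2 peaks with fold enrichments of 2.66, and 2.89 and 2.50, none shared. The eIF2 subunit genes gave little. EIF2S1, the α subunit that the kinases phosphorylate, had 1 peak of fold 3.13 in replicate 1, and EIF2S2, the β subunit, had none. EIF2S3, the γ subunit, and its near-identical copy EIF2S3B (CDS identity 98.2%) had 2 peaks each in replicate 1 alone, between fold 2.41 and 2.98, and reads in their CDS may be split between the copies. EIF1AX had 1 peak in replicate 1 (fold 2.52) and EIF1AD 1 in replicate 2 (fold 3.18). No peak was called on EIF5, the GTPase-activating protein of eIF2, with an mRNA of 5710 nt, or on EIF1AY.

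The eIF2B complex exchanges GDP for GTP on eIF2 and is blocked when the α subunit is phosphorylated. Of its 5 subunit genes, EIF2B2 alone had a peak, of fold 2.39 in replicate 1, at a position shared with ENSG00000258646. EIF2B1, EIF2B3, EIF2B4 and EIF2B5 had none.

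The eIF3 complex bridges the mRNA-bound factors and the small subunit. Its 14 genes made up 25.0% of the mRNA length and held 8 peaks in replicate 1 and 9 in replicate 2. EIF3A, the largest subunit, had 4 and 5 of these, with fold enrichments of 2.36 to 3.53 and 2.54 to 3.68, but only the peak in exon 7 was shared. EIF3L had 1 peak in each replicate, at the same place near the stop codon in exon 13, with fold enrichments of 4.25 and 4.05 and q values of 0.0612 and 0.104. Both EIF3L summits also lay in an exon of ENSG00000279738. EIF3E had 1 peak in each replicate (fold 2.83 and 2.30), in different exons, and EIF3J had 1 in replicate 1 (fold 2.52). EIF3C had 1 peak in replicate 1 (fold 2.16) and EIF3CL 2 in replicate 2 (fold 3.86 and 3.26). The CDS of these copies are 99.9% identical, so the EIF3CL peaks, both in the CDS, cannot be given to 1 of them. The EIF3C peak lay in an exon outside the canonical mRNA. The other 8 subunit genes, EIF3B, EIF3D, EIF3F, EIF3G, EIF3H, EIF3I, EIF3K and EIF3M, had none.

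Among the 5 genes of subunit joining and later steps, EIF5B, the GTPase that joins the large subunit, had 4 and 3 peaks. Their fold enrichments were 2.41 to 3.07 and 2.45 to 2.77, and none was shared. EIF5A2, the paralogue of the hypusine-carrying factor gene EIF5A, had 2 and 3 peaks (fold 2.59 to 2.62 and 1.94 to 3.57), of which 1 was shared. EIF5A, with a CDS identity of 72.5% to EIF5A2, had none, nor did EIF5AL1 or EIF6. EIF5A and EIF5AL1 are 98.9% identical in their CDS, so reads from either are uncertain.

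**Figure D3:**
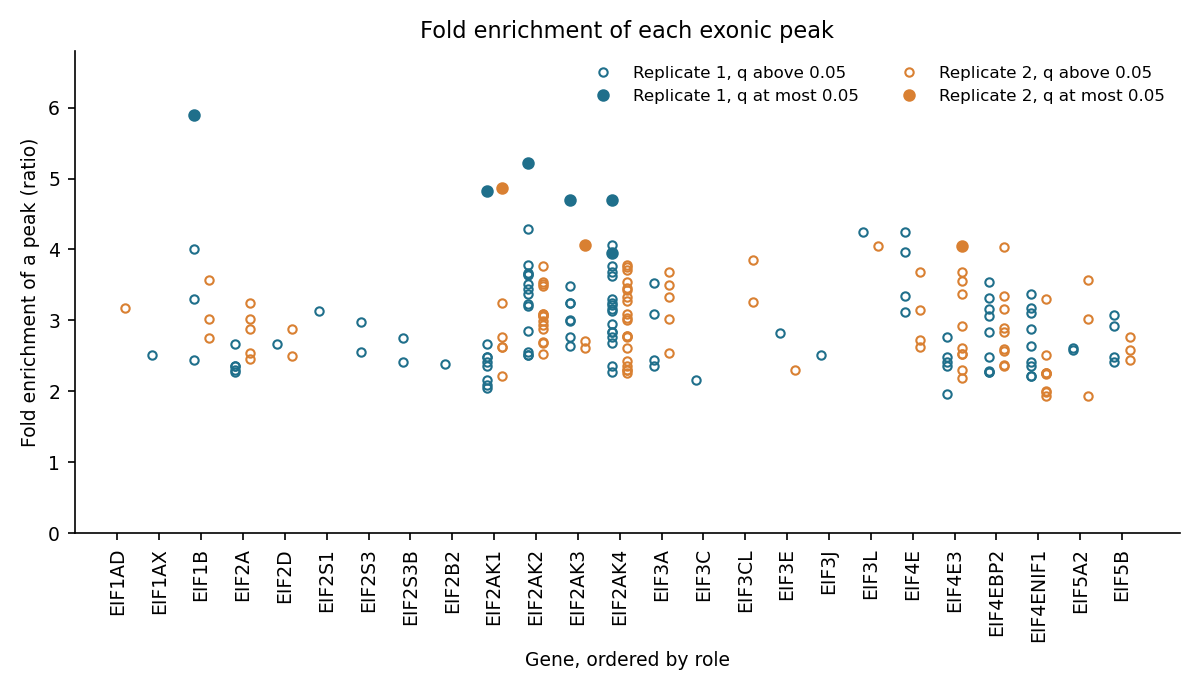
Fold enrichment (y axis) of every exonic peak in the 25 genes with any peak (x axis, ordered by role), in blue for replicate 1 and orange for replicate 2, filled where q was 0.05 or less. Values ran from 1.94 to 5.89, and the 9 filled points lay on EIF1B, EIF4E3 and the 4 eIF2α kinases.

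In strength the peaks of these mRNAs were ordinary to low. Their median fold enrichment was 2.83 in replicate 1 and 2.89 in replicate 2, a mean of 2.86 ± 0.0388 (SD, n = 2), next to 2.95 and 2.93 over all protein-coding exons. Their highest values were 5.89 and 4.87, where the lists reached 11.7 and 10.2 on protein-coding exons. Those maxima were taken over 41647 and 40105 peaks, so the highest values cannot be compared as a measure of strength. A q of 0.05 or less was held by 6 peaks (5.56%) of replicate 1 and 3 (2.97%) of replicate 2, next to 10.2% and 7.81% over all protein-coding exons. By gene, 6 of the 53 had such a peak in either replicate, or 11.3%, where 10.3% of all protein-coding genes did. These 6 were EIF1B, EIF2AK1, EIF2AK2, EIF2AK3, EIF2AK4 and EIF4E3. EIF4E3 was counted by its exon 5 peak alone, whose summit also lay in an exon of ENSG00000285708. Values came in steps, with 88 distinct pairs of fold enrichment and p among 108 peaks in replicate 1 and 84 among 101 in replicate 2. The peaks in exon 12 of EIF2AK3 and exon 10 of EIF2AK4, for instance, had the same values.

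Agreement between replicates was described at single sites and by gene, in measures that cannot be set against each other. Of the peaks, 50.9% in replicate 1 and 56.4% in replicate 2 overlapped a peak of the other replicate, next to 61.0% and 64.8% over all protein-coding exons. The 59 overlapping pairs lay on 13 genes with a median of 41 bp between summits, and 32 pairs had summits within 50 bp. The log2 fold enrichments of the pairs were weakly related, with a Pearson's r of 0.325 and a Spearman's rho of 0.332 (n = 59 pairs, several from the same mRNA). The number of peaks per gene in replicate 1 and replicate 2 had a rho of 0.809 across the 53 genes, which share their mRNA length between replicates. Of these genes, 28 had no peak in either replicate. Of the 25 genes with a peak in either replicate, 16 had one in both, where 5619 of 7259 did over all protein-coding genes.

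The number of peaks went with mRNA length, with a rho of 0.556 across the 53 genes and of 0.471 across all protein-coding genes. The 16 genes with peaks in both replicates had a median mRNA length of 4473.5 nt, and the 28 without a peak one of 1942 nt. By length class the shares with peaks in both replicates lay above and below those of all protein-coding genes. Up to 1000 nt it was 1 of 5 genes (EIF1B), where 2.82% of all protein-coding genes had such peaks, and from 1000 to 2000 nt it was 0 of 11, where 7.73% did. From 2000 to 3000 nt it was 4 of 15 (26.7%, next to 18.7%), and from 3000 to 5000 nt 4 of 12 (33.3%, next to 39.0%). Above 5000 nt it was 7 of 10 (70%, next to 54.4%). With so few genes in each class, these shares are descriptions. The part of mRNA length in the differences between roles was not tested. The amount of each mRNA in the cells was not analysed here, so low abundance and low recovery cannot be told apart, and a gene without a called peak is not shown to be unbound.

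**Figure D4:**
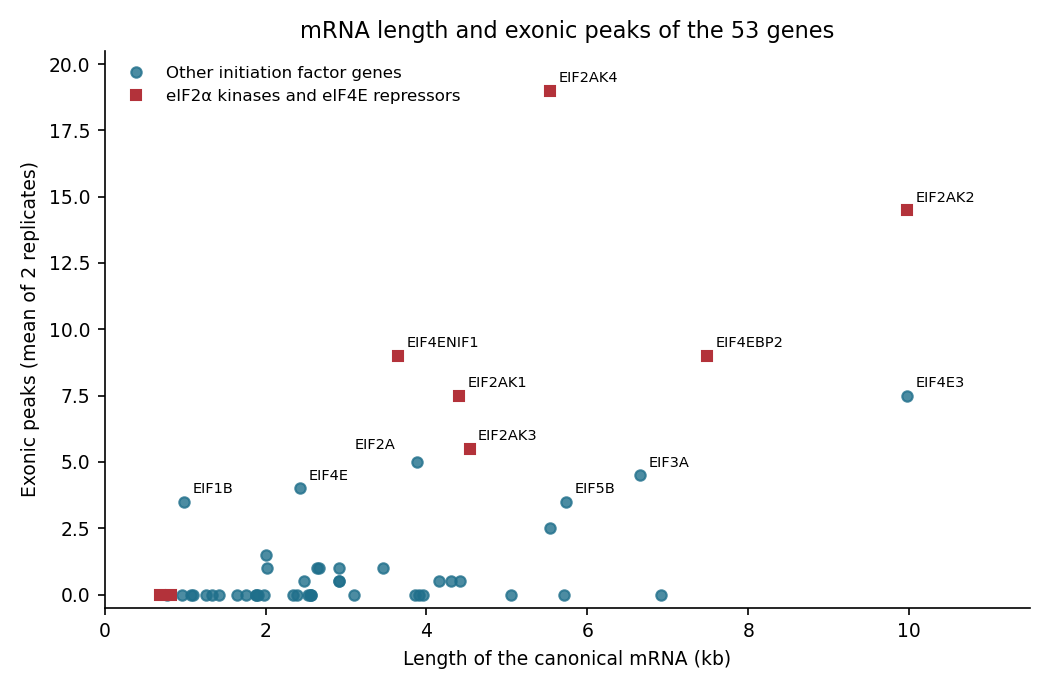
Mean number of exonic peaks over the 2 replicates (y axis) against the length of the canonical mRNA in kb (x axis) for the 53 genes, with eIF2α kinases and eIF4E repressors as red squares and the others as blue circles. The 6 kinases and repressors with peaks had means of 5.5 to 19.0, while EIF4EBP1 and EIF4EBP3 had none. The 45 blue circles, EIF1AD among them, stayed at 7.5 or below.

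To describe where on the mRNAs the peaks fell, summits were sorted by region of the canonical mRNA, and those up to 200 nt before or after the stop codon were counted apart. The CDS held 63.9% ± 6.28 of the summits (SD, n = 2), or 59.4% and 68.3%, while making up 35.4% of the mRNA length of the 53 genes. Over all protein-coding mRNAs the CDS held 71.6% ± 1.15 of summits (SD, n = 2) on 41.8% of the length. The stop codon window held 13.5% ± 0.905 on 11.7% of the length, next to 8.49% on 10.5% over all mRNAs. The 3′ UTR held 20.2% ± 3.41 on 49.7% of the length, next to 16.2% on 42.3% over all mRNAs. The 5′ UTR held 2.38% ± 1.97, or 4 summits in replicate 1 and 1 in replicate 2. The 3′ UTR summits rested largely on a pair of genes, EIF2AK2 and EIF4EBP2, which held 14 of 24 in replicate 1 and 13 of 18 in replicate 2.

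**Figure D5:**
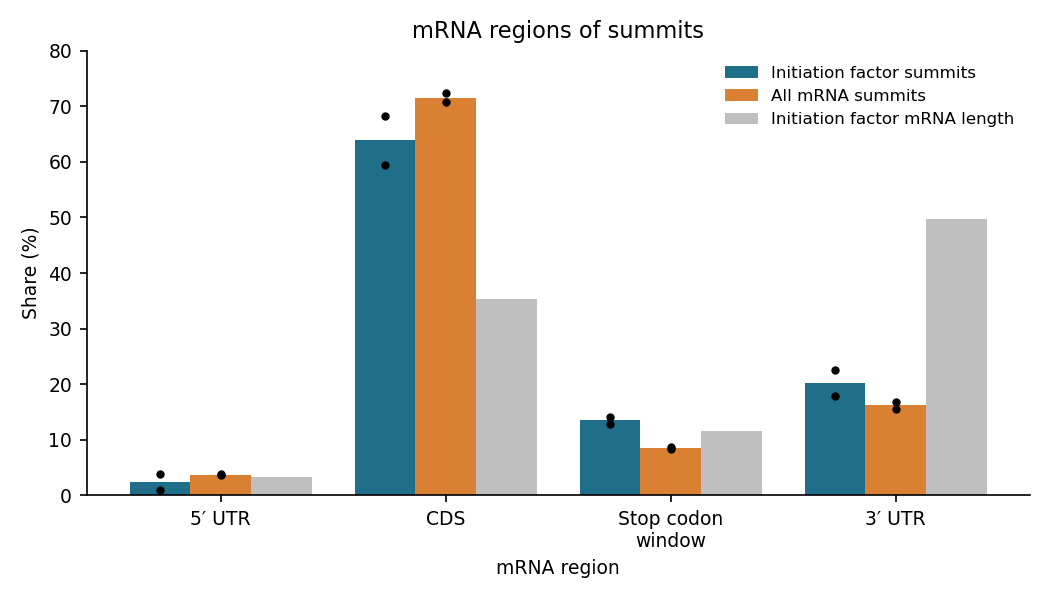
Share of summits in % (y axis) by region of the mRNA (x axis) for the initiation factor genes (blue) and all protein-coding genes (orange), with the share of initiation factor mRNA length in grey. Bars are means of the 2 replicates and black points the replicates. The CDS held 63.9% of the initiation factor summits on 35.4% of the length, and the 3′ UTR 20.2% on 49.7%.

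Short sequences known from IGF2BP binding were counted near the summits, and their shares were close to those near all mRNA summits, with no test made. In the mRNA-sense strand of windows of 101 nt around the summit, TGGAC occurred in 12.1% ± 0.271 of windows (SD, n = 2), next to 12.9% over all mRNA summits. GGAC, which TGGAC contains, occurred in 31.0% ± 2.42, next to 32.0%. CAT followed by A, C or T, the DNA spelling of a CAU-containing sequence bound by IGF2BP proteins, occurred in 66.2% ± 1.16, next to 67.1%.

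Genes that act beside the initiation factors, from lists of the same pathway, were set next to them. Of the 3 eIF4G genes, EIF4G3 had 34 and 30 peaks with a highest fold enrichment of 10.9 and 8.86, above any of the 53 genes, and EIF4G1 had none. Of 21 partners and regulators of initiation, EIF4G genes included, 9 (42.9%) had a peak in both replicates, next to 28.0% of all protein-coding genes. The list was uneven. LARP1, which represses mRNAs with a 5′ terminal oligopyrimidine tract, had 14 and 17 peaks, and MKNK1, the kinase of eIF4E, had 8 and 4. MKNK2, its paralogue, had 3 and 1, and PPP1R15B, a subunit of the phosphatase that reverses the kinases' mark on eIF2, had 1 and 1. PDCD4, an inhibitor of the helicase, had 1 and none, and PPP1R15A and PAIP2 had none. Of 14 elongation and termination genes 3 (21.4%) had a peak in both replicates. EEF2K, the kinase of elongation factor 2, had 14 and 14, and EEF1A1 and EEF2 had none. Of 88 cytosolic ribosomal protein genes none had a peak in both, and 2 peaks in replicate 2 were all they held. Their mRNAs are short, with a median of 858.5 nt. Of all protein-coding genes with mRNAs up to 1000 nt, 2.82% had a peak in both replicates. No test was made between these lists.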

How the data were processed

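IGF2BP3 RIP-seq of OE-19 cells gave 1 peak list per RIP replicate, called per sample. Groups and replicate numbers came from the sample titles. According to the submitters' processing notes, reads were handled with fastp, HISAT2 and MACS2 on hg38, whereas the study's methods name Tophat2 as mapper. Versions are not given in the sources used here. No source used here says which library the caller took as its control. Each deposited peak held a score, a fold enrichment (the ratio of signal to local background), a −log10 p and a −log10 q, all computed by the authors' caller. The study's methods state default settings of MACS2, which limit q to 0.05. The deposited values do not show that limit: the smallest deposited −log10 p was 2.0003, which goes with a limit of 0.01 on the uncorrected p, and 64.8% and 69.3% of the initiation factor peaks had a q of 1. The lists give no read depth (it is unknown), and intervals for counting error were therefore not computed. The number of peaks per list limits the precision.

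Genes, exons and mRNA sequences were those of GENCODE 44, and positions used the Ensembl canonical transcript. A summit in an exon assigned a peak without regard to strand, since the lists carry none. Other annotated genes with an exon at a summit are named with the result. Positions within mRNAs were placed for 106 and 101 summits, since 2 of replicate 1 lay in exons outside the canonical transcripts. Peaks counted as shared at an overlap of at least 1 bp. The genes, lists and role groups were chosen with earlier results of these data known. Values of both replicates were given for genes with a peak of q at most 0.05, and for the 5 genes each with the highest fold enrichment, the most peaks and the most peaks per kb. Sequences followed the rule stated beside them, for at most 6 sites. The site in EIF2AK1 exon 15 and the other genes described were chosen after their values were seen. Identity between paralogues was 100% less the edits between their CDS as a share of the longer. The 12 alternatives covered limits on q and p, other gene assignments, other gene sets, a stricter overlap, other transcripts and windows, and each replicate alone. Code was tested on simulated data. Software was Python 3.11.15 with pandas 2.3.3, matplotlib 3.10.9, scipy 1.17.1 and numpy 2.4.6.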

Additional observations from a re-analysis of the deposited data

Results flagged for a closer look

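Some peaks lay outside the exons described above. Across both lists, 5 peaks had their summit in an intron of one of the 53 genes, 3 in replicate 1 and 2 in replicate 2. A further 7 peaks lay on exons of pseudogenes of initiation factor genes, 6 in replicate 1 and 1 in replicate 2. In replicate 1 these were on EIF3LP3 (fold 2.64), EIF3LP2 (3.53), EIF4EP2 (2.85), EIF4BP6 (2.62 and 3.30) and EIF4BP7 (2.62). In replicate 2 the single peak was on EIF3LP2 (2.43). Whether the reads at these pseudogenes came from the mRNAs of EIF3L, EIF4E or EIF4B was not tested, and EIF4B itself had no called peak. The annotation holds 81 such pseudogenes. Peak lists of control samples were not used here. The matching counts over the introns and pseudogenes of all genes are not given, so these counts stand without a background.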

How the results depend on the processing

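No paired analysis was possible because the values analysed here were those of the RIP samples alone, with no second group to pair them with. As deposited, the lists gave a mean of 104.5 exonic peaks per replicate, 16 genes with a peak in both, 53.6% of peaks shared, a median fold enrichment of 2.86 and 63.9% of summits in the CDS. With peaks of q at most 0.05 only, these were 4.5 peaks, 2 genes, 22.2% shared and a fold enrichment of 4.41. With p at most 1e-05 they were 11 peaks, 4 genes, 18.2%, 3.92 and 72.7% in the CDS. For the 44 factors proper they were 39.5 peaks, 10 genes, 36.7%, 2.76 and 56.4% in the CDS. The 10 genes are 22.7% of the 44, next to 28.0% of all protein-coding genes and 30.2% of all 53. The 9 genes left out were set apart with results known, and 6 of them (66.7%) had a peak in both replicates. A share of the 44 below that of the 53 was thus fixed by the split. With the eIF4G genes added, 61.7% of peaks were shared, and with an overlap of at least 50% of both peaks 32.5% were. The stricter limits leave fewer and higher peaks by their construction, and the cause of the other changes was not tested. Of 59 values computed under 12 alternatives, 29 moved by more than the limit used (1 SD between replicates, or 1.5 times for a count). The other 30 moved by less, those of each replicate alone among them. Counts, percents and medians have no sign, so a reversal could not be seen. Each replicate alone gave 101 to 108 peaks, a median fold enrichment of 2.83 to 2.89 and 59.4% to 68.3% in the CDS, which with 2 replicates lies within 1 SD by construction. Unknown read depth, unstranded lists and unknown mRNA abundance limit all counts.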
